A study of Mus musculus with 4 samples.

Results

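The let-7 family with miR-98 was described here in 4 small RNA libraries of exosomes. Its members were the 9 mature 5p miRNAs mmu-let-7a-5p, mmu-let-7b-5p, mmu-let-7c-5p, mmu-let-7d-5p, mmu-let-7e-5p, mmu-let-7f-5p, mmu-let-7g-5p, mmu-let-7i-5p and mmu-miR-98-5p (written without the mouse prefix below), which were chosen by name and not by any measured value. They are 9 of the 668 miRNAs listed for the series, of which 373 were listed for small intestinal epithelial exosomes (SI-Exos), 611 for serum exosomes and 316 for both. All 9 members were detected in all 4 libraries. Exosomes are small vesicles that cells release and that carry RNA between tissues. They were isolated by ultracentrifugation from the small intestinal epithelium and from the serum of male C57BL/6J mice on standard chow, with no treatment named, aged 3 months or 18 months. Each of the 4 groups, SI-Exos and serum exosomes at either age, had 1 library, so no difference below has a replicate check and no test between ages or sources was possible. In the sources used here, the number of mice behind a library is not given.

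The let-7 miRNAs are among the best conserved of animal miRNAs. They were found as timing genes of larval development in the worm, accumulate as mammalian cells differentiate, and repress messages such as those of Hmga2, Lin28, the Ras and Myc genes and the Igf2bp genes. The RNA-binding proteins LIN28A and LIN28B in turn block the maturation of let-7 precursors, and in the intestinal epithelium the balance of LIN28B and let-7 is known to bear on the growth of crypt cells. A miRNA finds its targets mainly through its seed, which is made of bases 2 to 8, and the 5p arm is the strand of the let-7 hairpin that is usually kept.

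The mature sequences are shown because the members are told apart by few bases, all of them outside the seed. They were read from the deposited tables, are given 5′ to 3′ with the seed in capitals, and all 9 were the same in RefSeq (GRCm38.p6).
let-7a-5p: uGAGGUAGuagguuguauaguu
let-7b-5p: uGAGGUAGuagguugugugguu
let-7c-5p: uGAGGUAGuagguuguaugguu
let-7d-5p: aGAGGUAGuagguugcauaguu
let-7e-5p: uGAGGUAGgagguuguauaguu
let-7f-5p: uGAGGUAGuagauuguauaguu
let-7g-5p: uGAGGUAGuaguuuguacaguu
let-7i-5p: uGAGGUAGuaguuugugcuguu
miR-98-5p: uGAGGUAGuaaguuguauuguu

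All 9 members were 22 bases long and shared the seed GAGGUAG, and 14 of the 22 positions were identical in all of them. With positions counted from 1 at the 5′ end and let-7a-5p as the reference, let-7c-5p (A19G), let-7e-5p (U9G) and let-7f-5p (G12A) differed from it by 1 base. Differences at 2 positions set apart let-7b-5p (A17G and A19G), let-7d-5p (U1A and U16C), let-7g-5p (G12U and U18C) and miR-98-5p (G11A and A19U). The member farthest from let-7a-5p was let-7i-5p, with G12U, A17G, U18C and A19U. Of the 36 pairs of members, 4 differed by 1 base, 10 by 2 bases, and the most distant pair, let-7d-5p and let-7i-5p, by 6. In the sources used here no mapping options are given, so how a read that fits several members was assigned is unknown, and the division of reads between members 1 base apart is uncertain for that reason. This touches the rare let-7e-5p most directly, since its reads were only 0.784% of those of let-7a-5p in SI-Exos at 3 months and 3.34% at 18 months.

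In the mouse genome (GRCm38) 12 hairpins on 7 chromosomes encode the 9 members, and let-7a, let-7c and let-7f come from 2 hairpins each, whose reads the mature sequence cannot separate. Mirlet7d (chr13:48536012-48536114), Mirlet7f-1 (chr13:48537829-48537917) and Mirlet7a-1 (chr13:48538179-48538272) lie together on the minus strand in exons of the long non-coding RNA 6720427I07Rik. Mirlet7f-2 (chrX:151912346-151912428) and Mir98 (chrX:151913214-151913321) lie 785 bases apart in an intron of Huwe1, which encodes a ubiquitin ligase. Mirlet7c-2 (chr15:85706603-85706697) and Mirlet7b (chr15:85707319-85707403) lie 621 bases apart in an exon of the non-coding RNA Lncppara. Mirlet7g (chr9:106178840-106178927) sits in an intron of Wdr82, and Mirlet7i (chr10:122985640-122985724, minus strand) in an exon of the transcribed pseudogene D630033A02Rik. The remaining 3 hairpins have neighbours from the miR-99, miR-100 and miR-125 families. Mirlet7c-1 (chr16:77599657-77599750) is in an intron of Mir99ahg, 656 bases from Mir99a. Mirlet7e (chr17:17830352-17830444) is in an intron of Spaca6, 367 bases from Mir125a, and Mirlet7a-2 (chr9:41536716-41536811) is in an intron of 3110039I08Rik, between Mir100 and Mir125b-1.

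The libraries differed in depth and in the marker miRNAs of several tissues. SI-Exos gave 212215 miRNA reads at 3 months and 71353 at 18 months, and serum exosomes gave 832002 and 778237. Levels are given as CPM, the reads of a miRNA scaled to the sum of miRNA reads of its library, and 1 read was worth 4.71, 14.0, 1.20 and 1.28 CPM in that order. Of the larger library total behind the authors' RPM (reads scaled to that total), miRNAs made 1.14% and 0.411% for SI-Exos of young and old mice and 5.89% and 5.31% for serum exosomes. The labelled epithelial source was checked against 8 miRNAs of intestinal epithelium (miR-192, miR-194, miR-215 and the miR-200 family). All 8 were detected in SI-Exos at 3 months with a summed level of 267248 CPM. At 18 months 7 of 8 were detected with 82603 CPM (miR-200b-3p had 0 reads, which allows up to 42.0 CPM). In serum exosomes the sum was 16850 and 6603 CPM, most of it from miR-192-5p (15846 and 4132 CPM). There 6 of the 8 were lower at 3 months than at 18 months. The 4 miRNAs of red blood cells, among them miR-451a, summed to 6305 CPM in young and 37742 CPM in old SI-Exos and to 219662 and 538335 CPM in serum exosomes, with all 4 detected except in young SI-Exos, where miR-144-5p had 0 reads. The liver miRNA miR-122-5p had 384405 CPM in serum exosomes at 3 months and 26509 CPM at 18 months, and 245 and 350 CPM in SI-Exos.

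As a whole, the family was more abundant in SI-Exos at 3 months than at 18 months, and less abundant in serum exosomes at 3 months than at 18 months. The 9 members held 76892 of the miRNA reads of SI-Exos at 3 months, which is 36.2% (exact binomial 95% interval 36.0 to 36.4), and 8285 reads or 11.6% (11.4 to 11.8) at 18 months. In serum exosomes they held 47413 reads or 5.70% (5.65 to 5.75) at 3 months and 93829 reads or 12.1% (12.0 to 12.1) at 18 months. The highest of the 4 shares was thus that of young SI-Exos, the lowest that of young serum exosomes, and the shares of both sources at 18 months lay close together. In CPM, the family was 3.12-fold higher at 3 months in SI-Exos (95% interval 3.05 to 3.19) and 2.12-fold higher at 18 months in serum exosomes (2.09 to 2.14). All intervals here and below are exact Clopper-Pearson intervals and cover counting error only. The counts are of reads after PCR, for which the paper names no molecular identifiers, and the spread between mice was not measured. Fewer vesicles that carry a miRNA and less of it per vesicle cannot be told apart in such libraries. Among the 10 most abundant miRNAs of a library were 5 members in SI-Exos at 3 months, 1 at 18 months, and 1 and 3 in serum exosomes.

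**Figure D1:**
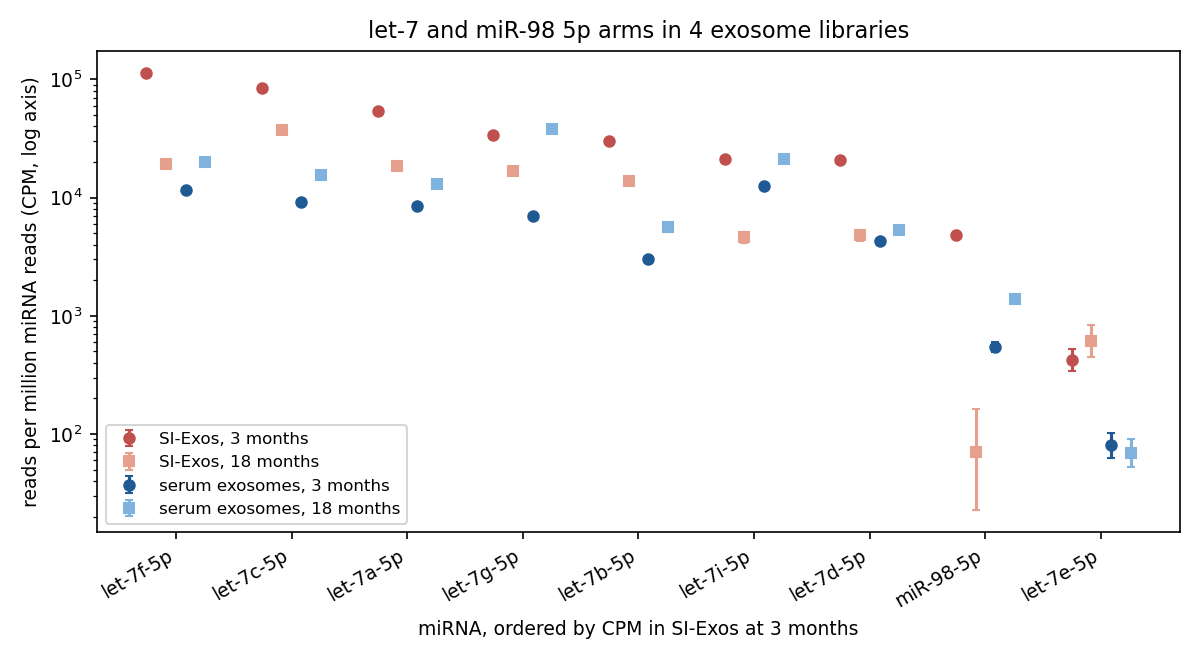
Level of each of the 9 members in the 4 libraries, in CPM of miRNA reads on a log axis, with exact 95% intervals that cover counting error only; each point is 1 library. In SI-Exos 8 of the 9 members lie higher at 3 months, from let-7f-5p with 112678 against 19242 CPM to miR-98-5p with 4858 against 70.1 CPM, and in serum exosomes 8 of the 9 lie higher at 18 months.

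In SI-Exos, 8 of the 9 members were called higher at 3 months and none lower. A call needed 10 or more reads in either library, a ratio of at least 2-fold and an interval without 1. By the same rule, 32.7% of all 214 miRNAs measured in SI-Exos were called higher at 3 months and 29.4% were called lower. The median log2 ratio of 3 to 18 months was 1.55 over the 9 members and 0.45 over all 214 miRNAs. All other miRNAs together had a ratio of 0.721, as the CPM of a library add up to a fixed total.

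The 3 members with the most reads at 3 months, all 1 base or less from let-7a-5p, were called with ratios between 2.24 and 5.86. For let-7f-5p, SI-Exos had 23912 reads (112678 CPM) at 3 months and 1373 reads (19242 CPM) at 18 months, a ratio of 5.86 (5.55 to 6.19). This member, which is made from the chromosome 13 and the X chromosome hairpins, accounted for 37.9% of the family's difference in CPM. For let-7c-5p, the levels were 17931 reads (84494 CPM) and 2686 reads (37644 CPM), a ratio of 2.24 (2.16 to 2.34). For let-7a-5p they were 11483 reads (54110 CPM) and 1318 reads (18472 CPM), a ratio of 2.93 (2.77 to 3.10). Without let-7f-5p the family was still 2.58-fold higher at 3 months (2.51 to 2.64).

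The other members of middle abundance fell into a group near 2-fold and a group above 4-fold. Near 2-fold was let-7g-5p, from the Wdr82 intron, with 7201 reads (33933 CPM) at 3 months and 1193 reads (16720 CPM) at 18 months, a ratio of 2.03 (1.91 to 2.16). So was let-7b-5p, the neighbour of Mirlet7c-2, with 6404 reads (30177 CPM) and 993 reads (13917 CPM), a ratio of 2.17 (2.03 to 2.32). Its interval overlapped that of let-7c-5p. Above 4-fold was let-7d-5p, with 4377 reads (20625 CPM) and 343 reads (4807 CPM), a ratio of 4.29 (3.84 to 4.80). Also above 4-fold was let-7i-5p, with 4463 reads (21031 CPM) and 330 reads (4625 CPM), a ratio of 4.55 (4.07 to 5.10). The 3 members with a hairpin in 6720427I07Rik, let-7a-5p, let-7d-5p and let-7f-5p, thus had ratios of 2.93, 4.29 and 5.86, whose intervals did not overlap.

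The extremes were the rarest members. In SI-Exos, miR-98-5p had 1031 reads (4858 CPM) at 3 months and 5 reads (70.1 CPM) at 18 months, a ratio of 69.3 (29.6 to 214). Its share at 3 months would have given 347 reads at the depth of the library at 18 months. It differs from every other member by at least 2 bases, and it lies beside Mirlet7f-2 in Huwe1, whose product let-7f-5p had the next largest ratio of the family. These 2 members also had the lowest GC content, 31.8% of their bases against 36.4% to 45.5% in the others. At the same GC content of 40.9%, let-7c-5p, let-7d-5p, let-7e-5p and let-7i-5p had ratios of 2.24, 4.29, 0.688 and 4.55. The part of GC content in the ratios was not tested. The exception in direction was let-7e-5p, with 90 reads (424 CPM) at 3 months and 44 reads (617 CPM) at 18 months, a ratio of 0.688 (0.474 to 1.01) that was not called.

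**Figure D2:**
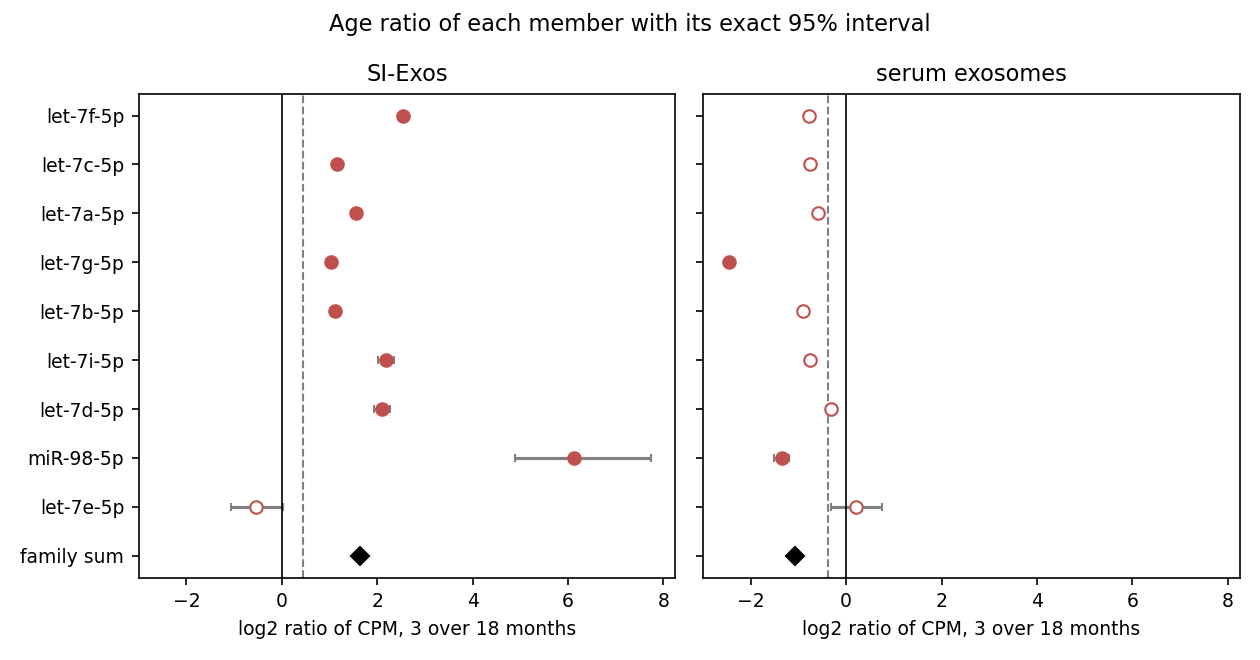
Log2 of the age ratio (CPM at 3 months divided by that at 18 months) of each member and, as a diamond, of the family sum, with SI-Exos and serum exosomes in separate panels; each point compares 1 library with 1 library, bars are exact 95% intervals for counting error, filled points were called, open points were not, and the dashed line marks the median over every measured miRNA. In SI-Exos 8 members lie to the right of 0, at ratios of 2.03 or above, and in serum exosomes 8 members lie to the left of 0, with let-7g-5p farthest at a ratio of 0.183.

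The size of the SI-Exos ratios depended on the total used, since every ratio was 2.78-fold larger relative to the library total behind the authors' RPM, with a family ratio of 8.66. With that total the ratio of let-7e-5p was 1.91, above 1, so its direction flipped. The family ratio was between 2.81 and 8.66 in the 6 other scalings tried, but when the 5 most abundant miRNAs were left out of the totals, or known miRNAs alone were used, let-7g-5p was at 1.83 and 1.86 and let-7b-5p at 1.95 and 1.98, so that 6 members were called higher in place of 8. Between the same libraries, the 8 epithelial miRNAs had a summed level of 267248 against 82603 CPM, most of it from miR-429-3p (137050 and 26866 CPM) and miR-192-5p (77176 and 20349 CPM). Of the 8, 6 were higher at 3 months, while miR-215-5p (13100 and 14225 CPM) and miR-141-3p (712 and 883 CPM) were higher at 18 months. Of the opposite arms of their hairpins, which the list does not hold and which were named after their values were seen, miR-194-1-3p had 12558 CPM at 3 months and 141900 CPM at 18 months. For miR-215-3p the levels were 13006 and 98706 CPM, and miR-141-5p (250 and 2130 CPM) was also higher at 18 months. The opposite arm miR-200a-5p was higher at 3 months, with 839 and 350 CPM. So were miR-200b-5p (15 and 0 reads), miR-192-3p (11 and 0 reads) and miR-200c-5p (10 and 0 reads). The 4 red blood cell miRNAs summed to 6305 against 37742 CPM. The part of these miRNAs in the difference of the let-7 members was not tested.

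In serum exosomes 8 of the 9 members, those called higher at 3 months in SI-Exos, were lower at 3 months with intervals without 1, and for all of these but let-7g-5p the difference was smaller than in SI-Exos. Of the 156 miRNAs measured in both sources, 23.1% had an interval above 1 in SI-Exos and below 1 in serum exosomes. The direction of let-7e-5p also differed between the sources, but both of its intervals held 1. Higher at 18 months by at least 2-fold, and so called lower at 3 months, were 2 members, let-7g-5p and miR-98-5p. None was called higher at 3 months and 7 were not called. Of all 251 miRNAs measured in serum exosomes, 25.9% were called lower at 3 months and 18.3% higher, so the count of 2 in 9 members was near the background. The median log2 ratio of 3 to 18 months was -0.76 over the members and -0.38 over all 251 miRNAs.

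The member that stood out in serum was let-7g-5p, with 5828 reads (7005 CPM) at 3 months and 29765 reads (38247 CPM) at 18 months, 5.46-fold more (5.31 to 5.62). It alone made 49.1% of the family's difference in CPM, and without it the family was 1.65-fold higher at 18 months (1.63 to 1.67). For miR-98-5p, the levels were 455 reads (547 CPM) and 1084 reads (1393 CPM), a ratio of 18 to 3 months of 2.55 (2.28 to 2.85). With totals without the 5 most abundant miRNAs, miR-98-5p was at 0.515 for 3 over 18 months and not called, whereas let-7g-5p kept its call in the 6 other scalings.

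The remaining members of serum exosomes differed by less than 2-fold between the ages. The 3 abundant members let-7i-5p (12586 and 21387 CPM at 3 and 18 months), let-7f-5p (11688 and 19987 CPM) and let-7c-5p (9246 and 15580 CPM) were 1.70-fold (1.66 to 1.74), 1.71-fold (1.67 to 1.75) and 1.68-fold (1.64 to 1.73) higher at 18 months. Their intervals overlapped. For let-7a-5p the levels were 8542 and 12906 CPM, 1.51-fold more at 18 months (1.47 to 1.56), and for let-7b-5p 3037 and 5682 CPM, 1.87-fold more (1.78 to 1.97). The smallest difference with an interval without 1 was that of let-7d-5p, with 4255 and 5315 CPM, 1.25-fold more (1.19 to 1.31), and its direction flipped when the 5 most abundant miRNAs were left out of the totals (1.05 for 3 over 18 months). In CPM of miRNA reads the ages could not be told apart for let-7e-5p, with 67 reads (80.5 CPM) at 3 months and 54 reads (69.4 CPM) at 18 months, a ratio of 1.16 for 3 over 18 months (0.799 to 1.69). Between the same libraries the red blood cell miRNAs had a summed level of 219662 and 538335 CPM and the liver miRNA miR-122-5p had 384405 and 26509 CPM, and their part in the let-7 differences was not tested.

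**Figure D3:**
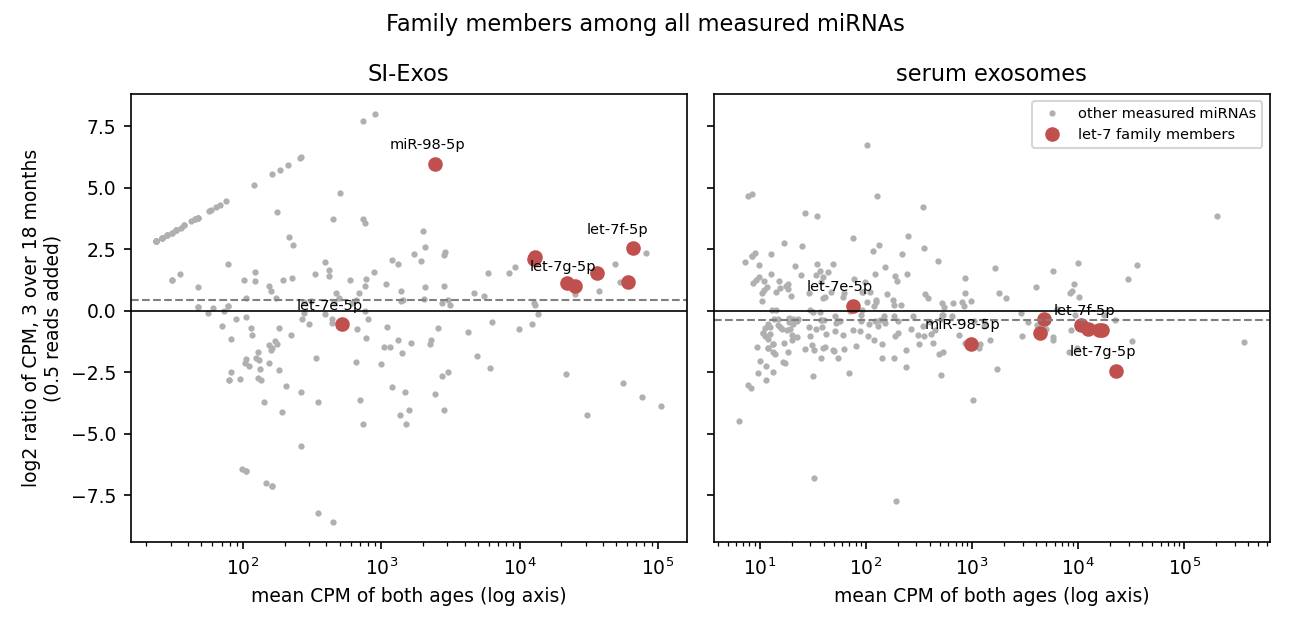
Log2 age ratio (CPM at 3 over 18 months, 0.5 reads added) against the mean CPM of both ages on a log axis, for every measured miRNA of SI-Exos (214) and of serum exosomes (251); each point is 1 miRNA, the 9 members are the large points, and the dashed line is the median of all. The members have a median of 1.55 against 0.45 for all in SI-Exos and of -0.76 against -0.38 in serum exosomes.

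The 2 sources were compared at the same age, with the limit that their tables were made separately and that a miRNA listed in 1 table was counted as 0 reads in the other. At 3 months 8 of the 9 members were called higher in SI-Exos than in serum exosomes and none lower, beside 43.8% of all 274 measured miRNAs called higher and 29.2% lower. The family was 6.36-fold higher in SI-Exos (6.29 to 6.43). The largest ratio was that of let-7b-5p, at 9.94 (9.49 to 10.4), followed by let-7f-5p at 9.64 (9.42 to 9.87) and let-7c-5p at 9.14 (8.90 to 9.39). The other called members, let-7a-5p, let-7d-5p, let-7e-5p, let-7g-5p and miR-98-5p, had ratios of 4.84 to 8.88. The exception was let-7i-5p, whose ratio of 1.67 (1.61 to 1.73) was not called. Its direction turned in 4 of the 6 other scalings, to 0.752 with TMM factors, 0.852 with DESeq2 size factors, 0.863 when the 5 most abundant miRNAs were left out of the totals and 0.324 relative to the total behind the authors' RPM.

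At 18 months the family sums of SI-Exos and serum exosomes were close, with a ratio of 0.963 (0.942 to 0.985), and the members were called in both directions in shares near the background. Higher in SI-Exos were let-7b-5p (2.45-fold, 2.28 to 2.62), let-7c-5p (2.42-fold, 2.32 to 2.52) and let-7e-5p (8.89-fold, 5.83 to 13.5), beside 32.8% of all 262 measured miRNAs called higher. Lower in SI-Exos were let-7g-5p (ratio 0.437), let-7i-5p (0.216) and miR-98-5p (0.0503), beside 29.8% called lower. The other 3, let-7a-5p (1.43), let-7d-5p (0.905) and let-7f-5p (0.963), were not called, and the intervals of let-7d-5p and let-7f-5p held 1. All source ratios depended strongly on the total. Relative to the library total behind the authors' RPM, the family ratio was 1.23 at 3 months with 0 members called higher, and 0.0745 at 18 months with 8 called lower and 0 higher.

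The order of the 4 libraries differed between members in CPM of miRNA reads. The level of let-7a-5p, let-7b-5p and let-7c-5p was highest in SI-Exos at 3 months, then in SI-Exos at 18 months, then in serum exosomes at 18 months and lowest in serum exosomes at 3 months, and no neighbours in that order had an interval with 1. The place of SI-Exos above serum exosomes at 18 months depended on the total, since the ratio of let-7a-5p there turned to 0.636 with TMM factors, 0.754 with DESeq2 size factors and 0.111 by the RPM total. For let-7b-5p and let-7c-5p it turned by the RPM total alone (0.189 and 0.187). The highest level of let-7g-5p was in serum exosomes at 18 months, 1.13-fold above SI-Exos at 3 months (1.10 to 1.16). The level of let-7i-5p in serum exosomes at 18 months could not be told from that in SI-Exos at 3 months (ratio 1.02, 0.984 to 1.05). Serum and SI-Exos at 18 months could not be told apart for let-7f-5p or let-7d-5p in CPM of miRNA reads. That too depended on the total, since SI-Exos over serum for let-7d-5p was 0.402 with TMM factors, 0.477 with DESeq2 size factors and 0.0699 by the RPM total. For let-7f-5p the ratio was 0.428, 0.507 and 0.0744 in the same order, and none of these intervals held 1. In CPM of miRNA reads the 2 ages could not be told apart for let-7e-5p in either source, and this depended on the total as well. In SI-Exos the interval of its ratio of 3 to 18 months was without 1 by the RPM total (1.32 to 2.80). The same held without the 5 most abundant miRNAs (0.428 to 0.910) and with known miRNAs alone (0.434 to 0.924). In serum exosomes it was without 1 when the 5 most abundant miRNAs were left out of the totals (1.05 to 2.22).

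Shares within the family need no scaling between libraries, and they showed how its make-up differed. In SI-Exos at 3 months let-7f-5p led with 31.1% of the family's reads, followed by let-7c-5p with 23.3% and let-7a-5p with 14.9%. At 18 months let-7c-5p led with 32.4%, and let-7f-5p (16.6%) and let-7a-5p (15.9%) could not be told apart. The share of let-7f-5p was thus 1.88-fold higher at 3 months (1.78 to 1.98), while those of let-7g-5p, let-7b-5p and let-7c-5p were 1.54-fold (1.44 to 1.63), 1.44-fold (1.34 to 1.54) and 1.39-fold (1.33 to 1.45) higher at 18 months. The rare members differed more. The share of miR-98-5p was 22.2-fold higher at 3 months (9.49 to 68.6), with 5 reads at 18 months, and that of let-7e-5p was 4.54-fold higher at 18 months (3.09 to 6.58). For let-7d-5p and let-7i-5p the shares were 1.37-fold (1.23 to 1.54) and 1.46-fold (1.30 to 1.63) higher at 3 months. In serum exosomes let-7i-5p led at 3 months with 22.1%, ahead of let-7f-5p with 20.5%. At 18 months let-7g-5p led with 31.7%, against 12.3% at 3 months, a 2.58-fold higher share (2.51 to 2.65). Every other member but miR-98-5p had a lower share in serum exosomes at 18 months than at 3 months. The share of let-7i-5p was 3.81-fold higher in serum exosomes than in SI-Exos at 3 months (3.67 to 3.94) and 4.45-fold higher at 18 months (3.99 to 4.98).

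**Figure D4:**
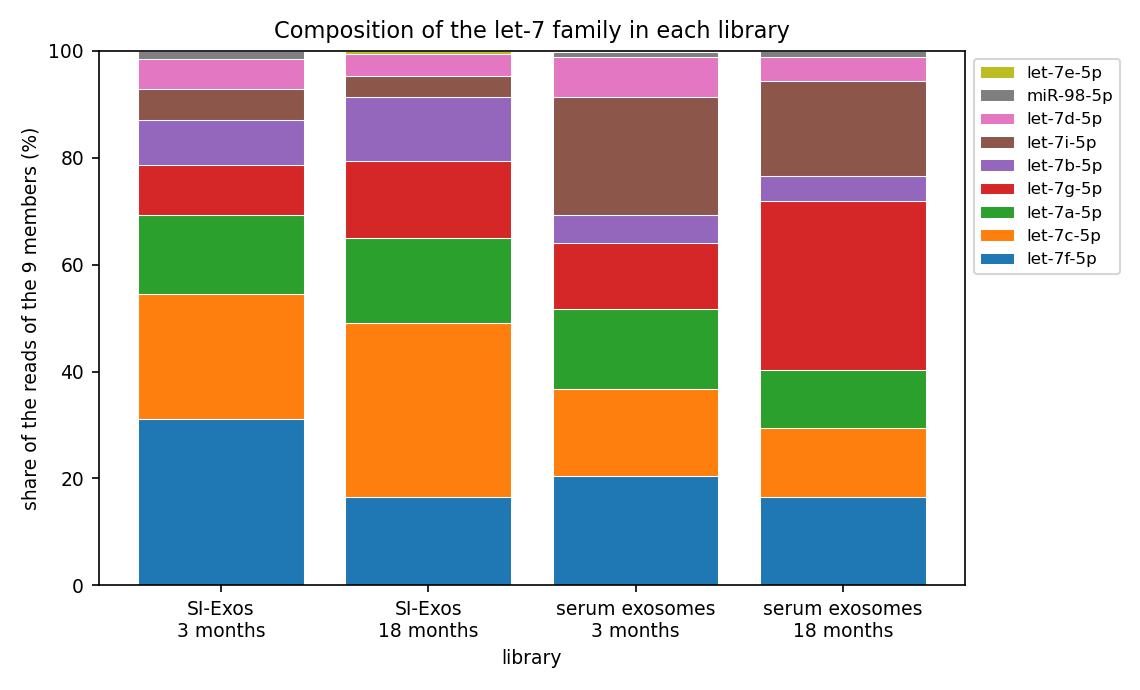
Make-up of the family in each of the 4 libraries, as each member's percent of the reads of the 9 members. The leading member differs between all 4 libraries, with let-7f-5p (31.1%) and let-7c-5p (32.4%) in SI-Exos at 3 and 18 months and let-7i-5p (22.1%) and let-7g-5p (31.7%) in serum exosomes.

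The 3p arms, the strands that are mostly discarded when the hairpin is processed, were rare in all 4 libraries. Of the 9 listed 3p arms, 3 had at least 10 reads in 1 library. They are shown because 2 of the names stand for 1 sequence. The sequence of let-7a-1-3p was read from RefSeq (GRCm38.p6) and the others from the deposited tables.
let-7a-1-3p: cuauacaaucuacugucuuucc
let-7c-2-3p: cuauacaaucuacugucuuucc
let-7d-3p: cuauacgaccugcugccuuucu

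Under the name let-7a-1-3p, SI-Exos had 44 reads at 3 months and 10 at 18 months, and serum exosomes had 0 (which allows up to 3.61 CPM) and 51. Under the name let-7c-2-3p the reads were 3, 0, 169 and 1 in the same order. Since both names carry the same mature sequence, the reads of 1 library lay mostly under 1 name, and neither name was read alone. Added up, they had 47 and 10 reads in SI-Exos and 169 and 52 in serum exosomes. For let-7d-3p, the reads were 37 and 5 in SI-Exos and 301 and 100 in serum exosomes.

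In serum exosomes the 3p arms were higher at 3 months, the opposite of the 5p arms. All 3p arms together had 490 reads at 3 months and 170 at 18 months, 2.70-fold more in CPM at 3 months (2.26 to 3.23). The 2 most abundant 3p sequences were both higher at 3 months, with let-7d-3p at 2.82-fold (2.24 to 3.57) and the shared sequence of let-7a-1-3p and let-7c-2-3p at 3.04-fold (2.22 to 4.23). In SI-Exos all 3p arms together had 94 and 25 reads, a ratio of 1.26 whose interval held 1 (0.806 to 2.05). Relative to the library total behind the authors' RPM, that ratio was 3.51 (2.24 to 5.70). It was 1.81 (1.15 to 2.93) with DESeq2 size factors and 1.75 (1.12 to 2.84) with totals without the members. In the other scalings tried its interval held 1.

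The number of 5p reads for each 3p read therefore differed between the libraries, a measure that again needs no scaling. It was 818 (668 to 1012) and 331 (224 to 512) in young and old SI-Exos, and 96.8 (88.5 to 106) and 552 (475 to 645) in serum exosomes. Serum exosomes at 3 months had the lowest value of the 4 libraries. For let-7d, the only member with at least 100 reads of its own 3p arm, the values were 118 (85.7 to 168) and 68.6 (29.1 to 213) in SI-Exos, whose intervals overlapped, and 11.8 (10.5 to 13.3) and 41.4 (33.9 to 51.0) in serum exosomes. In SI-Exos, let-7i-3p had 1 read at 3 months and 9 at 18 months, when let-7i-5p had 4463 and 330.

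**Figure D5:**
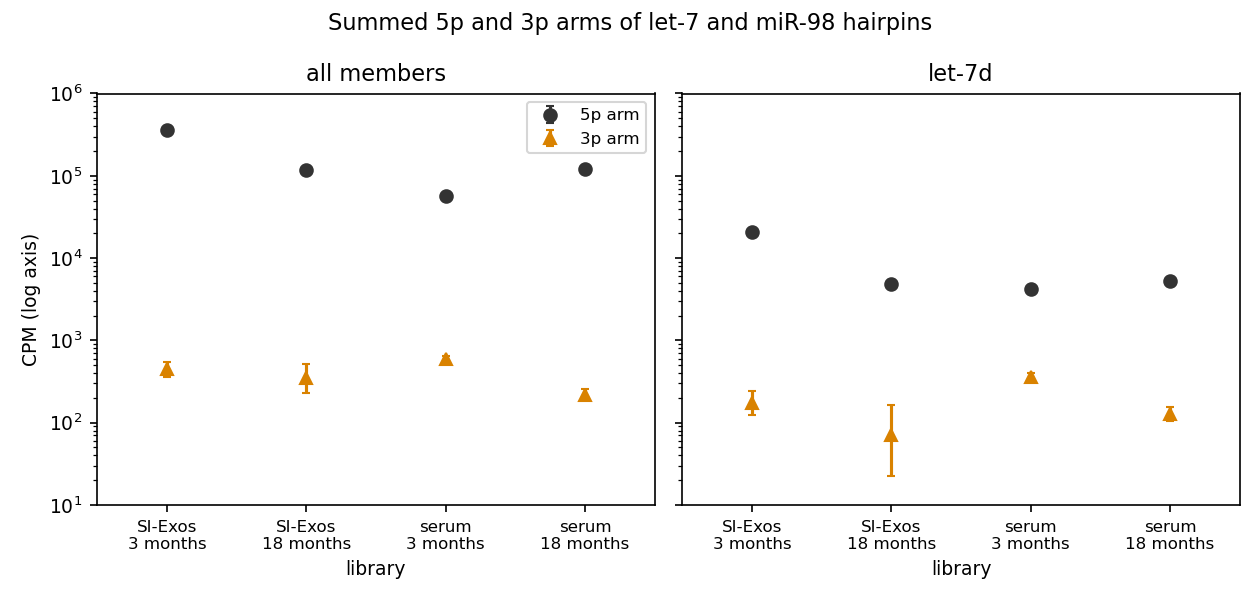
Levels of the 5p arms (circles) and 3p arms (triangles) in the 4 libraries, in CPM on a log axis, for all members summed and for let-7d, with exact 95% intervals for counting error; each point is 1 library. The arms lie closest together in serum exosomes at 3 months, where 5p over 3p was 96.8 for all members and 11.8 for let-7d.

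The miRNAs of the miR-99, miR-100 and miR-125 families share primary transcripts with let-7 hairpins and carry seeds of their own. Of 11 such mature miRNAs, 5 were measured in SI-Exos, and there none was called higher at 3 months and 4 were called lower, beside 32.7% and 29.4% of all 214 measured miRNAs. From 3 to 18 months miR-100-5p went from 2031 to 10133 CPM (431 and 723 reads), a ratio of 0.200 for 3 over 18 months (0.177 to 0.226). For miR-125b-5p the levels were 254 and 1065 CPM, a ratio of 0.239 (0.165 to 0.343). Mir100 and Mir125b-1 lie near Mirlet7a-2, and let-7a-5p had a ratio of 2.93. Both let-7a-5p and miR-125b-5p also come from a further hairpin elsewhere (Mirlet7a-1 and Mir125b-2), so their reads cannot be tied to that transcript. Also lower were miR-99b-5p (0.438) and miR-125a-5p (0.356, with 18 and 17 reads), and miR-99a-5p was at 0.617 and not called. Relative to the library total behind the authors' RPM none of the 5 was called and 2 of them had ratios above 1. In the 5 other scalings tried all 5 ratios stayed below 1, with 2 to 4 of them called.

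In serum exosomes 6 of these miRNAs were measured, of which 2 were called higher at 3 months, 1 lower and 3 not at all, beside 18.3% of all 251 measured miRNAs called higher and 25.9% lower. Higher at 3 months were miR-125b-5p (274 and 103 CPM, a ratio of 2.67, 2.06 to 3.48) and miR-99b-5p (1234 and 490 CPM, a ratio of 2.52, 2.24 to 2.84). Lower was miR-125a-5p, with 11 and 31 reads and a ratio of 0.332 (0.151 to 0.678). The most abundant of them, miR-99a-5p, neighbour of Mirlet7c-1, had 11298 and 6400 CPM, a ratio of 1.77 (1.71 to 1.83), and let-7c-5p had 0.593 between the same libraries. The ratios of miR-100-5p and miR-99b-3p were 1.64 and 0.791, neither called.

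Besides the 9 members, 6 listed miRNAs carried the seed GAGGUAG, and all were rare. One was the known let-7k, with 1 read in SI-Exos at 18 months and 1 in serum exosomes at 3 months. The other 5 were predicted by the authors' processing, among 63 predicted miRNAs listed for SI-Exos and 79 listed for serum exosomes. They were 18 or 19 bases long and differed from a member by 1 or 2 bases over their length. The predicted sequence with the most reads is shown beside let-7b-5p, from which it differs by 1 base.
predicted miR75-5p: gGAGGUAGuagguugugu
let-7b-5p: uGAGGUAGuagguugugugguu

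It had 20 and 0 reads in SI-Exos and 13 and 6 in serum exosomes. The 6 together had 38 reads in young and 5 in old SI-Exos, and 25 and 19 in serum exosomes, which is too few to move the family's share.

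Outside the family, the miRNAs whose levels over the 4 libraries lay nearest to the pattern of the family sum were miR-26a-5p, miR-218-5p, miR-151-5p, miR-23b-3p and miR-30a-3p. Nearness was the Euclidean distance between log2 CPM values centred on their mean over the 4 libraries, among 82 miRNAs with at least 10 reads in all of them. The nearest was miR-26a-5p, with 47541 and 27273 CPM in young and old SI-Exos and 10773 and 16377 CPM in serum exosomes, at a distance of 0.696. The distances of the others ran from 0.883 to 1.31. Of the members themselves, let-7a-5p lay nearest to the sum (0.450) and miR-98-5p farthest (3.57). Of the 5 nearest miRNAs, all but miR-26a-5p had under 100 reads in SI-Exos at 18 months, so a minimum of 100 reads in every library removes them by construction and says nothing of their nearness. With 4 libraries such nearness is a description of these levels.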

How the data were processed

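Small RNA of exosomes was sequenced by the authors in 4 libraries, which were grouped by the submitters' labels. These labels and the paper's methods differ on the library kit and the sequencing platform. Bowtie2 2.2.9 and the build GRCm38 are listed in the submitters' processing notes, with no options in the sources used here. The authors deposited read counts for each mature miRNA and RPM, counts scaled to a total that exceeds the sum of miRNA reads. Their deposited log2 ratios, p-values and FDR hold their own comparison and were not used.

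Counts were divided by the sum of miRNA reads of the library to give CPM. Ratios carry exact 95% intervals from the conditional binomial of 2 counts, and shares exact binomial intervals. Calls were made over the whole table. The rule was run on simulated data that held counting error alone, so that run says nothing of the spread between mice or libraries. For log2 medians and distances 0.5 reads were added. With 1 library per group no p-value was made. The depth was 71353 to 832002 miRNA reads, so 1 read was 1.20 to 14.0 CPM, and a count of 0 allows 3 reads. Hairpins and mature sequences were matched to RefSeq GRCm38.p6 and a GRCm38 annotation.

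Named were all members, 3p arms and transcript partners with at least 10 reads in 1 library, the 5 nearest patterns, marker lists and any other miRNA with the seed. The names let-7i-3p, miR-30e-3p and predicted miR53-5p were added after their values were seen. The members were taken by name and not by value, but earlier results of these data were known when they and the lists were chosen. Alternatives were edgeR 4.0.16 TMM factors and DESeq2 1.42.0 size factors (scaling only), the RPM total, totals without the 5 most abundant miRNAs or without the members, known miRNAs alone, other minimum reads, folds and added reads, and added 3p arms. The scripts ran in R 4.3.3 and Python 3.11.15 (numpy 2.4.6, scipy 1.17.1, pandas 2.3.3, matplotlib 3.10.9).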

Additional observations from a re-analysis of the deposited data

Results flagged for a closer look

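The age ratio (3 over 18 months) lay on opposite sides of 1 in SI-Exos and in serum exosomes for 8 of the 9 members and for their sum, with neither interval holding 1. Of all 156 miRNAs measured in both sources, 23.1% lay the same way, above 1 in SI-Exos and below 1 in serum exosomes. The age ratio in SI-Exos divided by that in serum exosomes was 6.60 for the family sum. Among the members it was 4.43 for let-7a-5p, 4.06 for let-7b-5p, 3.78 for let-7c-5p and 5.36 for let-7d-5p. It was 10.01 for let-7f-5p, 11.1 for let-7g-5p, 7.73 for let-7i-5p and 177 for miR-98-5p (74.5 to 548). For let-7e-5p it was 0.593, with an interval that held 1 (0.345 to 1.02). The intervals cover counting error only, and with 1 library for each age and source the difference between the sources was not tested. With the 5 most abundant miRNAs left out of the totals, the serum ratio of let-7d-5p was 1.05, on the same side as in SI-Exos.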

How the results depend on the processing

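No paired analysis was possible because each group had 1 library and the labels give no replicate numbers. Leaving out a replicate was not possible for the same reason. In SI-Exos, the family's age ratio (3 over 18 months, 3.12) was 3.28 with TMM, 4.46 with DESeq2 size factors, 8.66 by the RPM total, 2.81 without the 5 most abundant miRNAs, 4.33 with totals without the members, 2.86 with known miRNAs alone and 2.58 without let-7f-5p. The members called higher were 6 without the 5 most abundant miRNAs and with known miRNAs, and 4 at 4-fold. In serum exosomes the ratio (0.473) was 0.540, 0.505, 0.524, 0.620 and 0.441 in the 5 scalings in the same order, and 0.607 without let-7g-5p. The members called lower were 1 without the 5 most abundant miRNAs, 7 at 1.5-fold and 1 at 4-fold. Both directions held in all scalings tried, but totals that left out only the abundant miRNAs far higher in SI-Exos at 18 months, such as miR-30e-3p, were not tried. The SI-Exos over serum ratio of ratios (6.60) was 6.08, 8.83, 16.5, 4.54 and 9.81 in that order and 6.04 with known miRNAs alone.

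Between the sources at 3 months, the ratio of 6.36 was 2.86 with TMM, 3.24 with DESeq2, 1.23 by the RPM total, 3.28 without the 5 most abundant, 9.40 without the members and 6.45 with known miRNAs. By the RPM total, 0 members were higher and 1 was lower, and let-7d-5p (0.939) and let-7g-5p (0.938) reversed. At 18 months, the ratio of 0.963 was 0.428 with TMM, 0.508 with DESeq2 and 0.0745 by the RPM total, and it reversed to 1.07 with known miRNAs. There 1 member was higher and 5 were lower with TMM, 1 was higher with DESeq2 and 1 at 4-fold, and by the RPM total 0 were higher and 8 lower. By that total let-7b-5p (0.189), let-7c-5p (0.187) and let-7e-5p (0.687) reversed. The RPM total counts reads that are not miRNAs, whose part in the libraries differed.

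The family's share in SI-Exos was 36.8% and 12.9% of known miRNA reads at 3 and 18 months. Of the RPM total it was 0.413%, 0.0477%, 0.336% and 0.640% in the 4 libraries, and with 3p arms 5.76% in serum exosomes at 3 months. The 3 leading members there made 58.2% with 3p arms. Without the most abundant member the leading 3 made 69.4% in SI-Exos at 18 months and 66.4% and 69.2% in serum exosomes. With both arms limited to members with at least 10 3p reads in the library, 5p over 3p was 402 in SI-Exos at 3 months. In serum exosomes it was then 58.3 and 173. These lower values leave out the 5p reads of the other members, so they are not the effect of dropping rare 3p arms. Of the 5 nearest patterns, 1 remained at 100 reads, since that minimum removes the other 4. Of 216 ratios of single members under the 6 other scalings, 16 changed direction, 5 of them of called members (those named above). The other 11 were of members not called: 1 in the SI-Exos ages (let-7e-5p), 1 in the serum ages (let-7d-5p), 4 for let-7i-5p between the sources at 3 months, and at 18 months 3 for let-7a-5p and, with known miRNAs, let-7d-5p (1.004) and let-7f-5p (1.07). Leaving out let-7f-5p or let-7g-5p, adding the reads of the 2 names of a 3p sequence and adding the other seed carriers were chosen after seeing the data. Depth limits let-7e-5p (44 to 90 reads), miR-98-5p in SI-Exos at 18 months (5 reads) and the 3p arms.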
